A study of Mus musculus with 6 samples.

Results

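The late-numbered microRNAs (miRNAs) are the mouse miRNAs whose miRBase number is 1000 or higher. They were chosen by name, as every entry called mmu-miR with such a number, with miR-1188, miR-1193, miR-1197, miR-3070 and miR-3072 left out, and 59 of the 718 entries in the table met this rule. Of these 59 miRNAs, 38 carry an arm in their name (5p or 3p, the side of the hairpin they come from) and 21 carry none. Both groups of samples were small extracellular vesicles (sEVs) released by cultured islets of wild-type C57/B6J mice. The nid-sEVs (normal islet-derived) came from mice on the normal chow diet (NCD, 3 libraries), and the aid-sEVs (adaptive islet-derived) came from mice on the high-fat diet (HFD, 3 libraries). In both groups the islets were kept for 48 hours in medium without serum, the vesicles were collected by ultracentrifugation, and 5 ng of RNA went into each small RNA library. The comparison asks how the miRNA cargo of islet sEVs differs between the diets. In the study's general account of the diet model, feeding began at 8 weeks of age and 9 weeks of HFD stood for the adaptive stage. The age, sex and number of the mice behind these libraries, and whether same-numbered libraries were made together, are not given in the sources used here. The study states in general that its experiments had 3 or more biological replicates, without saying how these libraries map to mice. P-values therefore measure only the spread between these libraries, which may be partly technical.

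A miRNA is a short RNA, usually cut from a hairpin by Drosha with its partner Dgcr8 (the Microprocessor complex) and then by Dicer, that guides an Argonaute protein to messenger RNAs through its seed, bases 2 to 8. miRBase numbers miRNAs in the order in which they were submitted, so a high number marks a late entry, often one read by deep sequencing at a low level in few tissues and often found in rodents alone. Some late entries come from short introns whose ends are set by splicing in place of Drosha (mirtrons), and some lie on other RNA genes, such as tRNA genes. A name without an arm means that 1 product was named for the hairpin when it was entered. In sEVs, miRNAs are studied as cargo that passes from cell to cell.

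Mature sequences for 56 of the 59 miRNAs were found in RefSeq (GRCm38.p6), and miR-5099, miR-6540-5p and miR-6952-5p were not matched. The sequences shown first are those of the 5 late-numbered miRNAs with the highest mean level and of miR-5126, none of which has an arm in its name, with the seed in capitals.
miR-5119: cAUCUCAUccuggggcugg
miR-5124a: gGUCCAGUgacuaagagcau
miR-2137: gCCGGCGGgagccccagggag
miR-5110: gGAGGAGGuagagggugguggaauu
miR-6240: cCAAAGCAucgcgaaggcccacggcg
miR-5126: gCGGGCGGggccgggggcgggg

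The sequences of the 6 miRNAs called higher in aid-sEVs follow, again with the seed in capitals, because the comparison of the groups turns on them.
miR-1983: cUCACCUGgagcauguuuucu
miR-7688-5p: uAGCUGGGcaugaucugaugagc
miR-9768-5p: uGGCACUCggaggacggcacugu
miR-1964-3p: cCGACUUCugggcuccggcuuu
miR-1947-5p: aGGACGAGcuagcugagugcug
miR-1306-5p: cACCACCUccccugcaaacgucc

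The last set is 5 other miRNAs with reads in every library, none of them called in either direction, with the seed in capitals.
miR-3074-5p: gUUCCUGCugaacugagccagu
miR-3099-3p: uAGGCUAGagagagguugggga
miR-1198-5p: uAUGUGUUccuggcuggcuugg
miR-3968: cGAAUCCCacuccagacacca
miR-1224-5p: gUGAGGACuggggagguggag

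The 56 sequences had 56 different seeds, so no late-numbered miRNA shared its seed with another. Only 3 of them shared a seed with any other listed miRNA of known sequence: miR-6240 with miR-330-3p, miR-1943-5p with miR-149-3p, and miR-3473d with miR-674-5p. The median GC content of the late-numbered sequences was 56.8%, against 47.6% for the 363 miRNAs with a number below 1000 (let-7 included) that had a sequence. At the extreme, all bases of miR-5126 were G or C (100%), and miR-6538 reached 94.7% and miR-2137 85.7%, while the highest GC content of a lower-numbered miRNA was 81.8%. Lengths ran from 19 to 26 bases, and 3 late-numbered miRNAs without an arm were shorter than 20 bases.

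The 3 nid-sEV libraries held 50534 to 129152 reads and the 3 aid-sEV libraries 122266 to 519315, with levels given as RPM (reads scaled by the library total). A floor of 3 reads was chosen, which was 23.2 to 59.4 RPM in nid-sEVs and 5.78 to 24.5 RPM in aid-sEVs. Smaller counts occur and were kept. Intervals and floors cover counting error only. A read covers a whole mature miRNA, so no scaling by length was made. The table lists no entry with reads in fewer than 2 libraries. In nid-sEV replicate 1, 33.4% of the reads lay in entries without a miRBase name, against 6.61 to 9.45% in the other 5 libraries. All 8 islet marker miRNAs were listed, and their summed level was 79821 to 364349 RPM in nid-sEVs and 168461 to 189326 RPM in aid-sEVs. The summed level of 5 red cell and liver miRNAs was 4611 to 10608 RPM in nid-sEVs and 414 to 1548 RPM in aid-sEVs. That of 5 leukocyte miRNAs was 152 to 435 RPM against 24.5 to 38.5 RPM, and that of 5 neural miRNAs was 674 to 2018 RPM against 2507 to 3901 RPM, so these 3 lists did not overlap between the groups. The 3 exocrine miRNAs summed to 2533 to 8997 RPM against 698 to 3370 RPM, the 6 mesenchymal ones to 5798 to 25706 RPM against 4517 to 11758 RPM, and the 2 endothelial ones to 989 to 3717 RPM against 679 to 1325 RPM, with overlapping groups. In sEVs of mixed cells, fewer vesicles from a cell type and fewer copies per vesicle cannot be told apart.

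Late-numbered miRNAs took a small share of the reads, and a larger one in nid-sEVs than in aid-sEVs. The share was 1.503% (95% Wilson interval 1.44 to 1.57), 2.81% (2.69 to 2.94) and 5.62% (5.42 to 5.82) in nid-sEV replicates 1, 2 and 3. In aid-sEV replicates 1, 2 and 3 it was 0.851% (0.826 to 0.876), 0.969% (0.937 to 1.002) and 0.629% (0.586 to 0.675). Every nid-sEV library was above every aid-sEV library. The summed level was 33118 ± 21035 RPM in nid-sEVs and 8163 ± 1727 RPM in aid-sEVs (SD, n = 3), 4.06-fold higher in nid-sEVs, with a two-sided exact permutation p of 0.10, the smallest that 3 against 3 libraries can give. Among reads with a miRBase name alone, which leaves out the large unnamed part of nid-sEV replicate 1, the mean shares were 3.86% and 0.884%, a 4.36-fold difference with the same exact permutation p of 0.10. The red cell and liver and the leukocyte lists were also higher in every nid-sEV library, and the part of these cells in the difference was not tested.

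Nearly all of this difference lay in the 21 miRNAs without an arm. The aid-sEV mean minus the nid-sEV mean was -24955 RPM for all 59 and -24846 RPM for these 21. It lay mostly in a few of the 21, by mean RPM in nid-sEVs against aid-sEVs. These were miR-5119 (11470 against 3076), miR-5124a (8704 against 1502), miR-2137 (6462 against 404) and miR-5110 (2335 against 257). The groups overlapped for miR-5124a and miR-5110. The summed level of the 21 was 13674, 25384 and 54656 RPM in nid-sEVs and 6778, 8006 and 4392 RPM in aid-sEVs, so the groups did not overlap. Their mean was 4.89-fold higher in nid-sEVs (31238 ± 21109 against 6392 ± 1838 RPM, SD, n = 3; exact permutation p = 0.10). With 1 library left out, the log2 difference of -2.29 ran from -2.65 without nid-sEV replicate 1 to -1.61 without nid-sEV replicate 3. The 38 miRNAs with an arm summed to 1355, 2741 and 1544 RPM in nid-sEVs and to 1729, 1686 and 1898 RPM in aid-sEVs, which overlapped. Their means were 1880 ± 752 and 1771 ± 112 RPM (SD, n = 3; exact permutation p = 1.0), and without nid-sEV replicate 2 the mean was higher in aid-sEVs by 0.29 on the log2 scale. Compared directly, the miRNAs without an arm made up 91.0, 90.3 and 97.3% of the late-numbered reads in nid-sEVs and 79.7, 82.6 and 69.8% in aid-sEVs. These shares did not overlap between the groups, with an exact permutation p of 0.10. The first nid-sEV library and the third aid-sEV library were nearly equal in total depth (129152 and 122266 reads). In this pair the miRNAs without an arm were 3.11-fold higher and those with an arm 0.714-fold as high in the nid-sEV library. However, 33.4% of the reads in nid-sEV replicate 1 had no miRBase name, against 9.22% in aid-sEV replicate 3. Over named reads alone both ratios would be larger, and this limit holds wherever the pair is used below.

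**Figure D1:**
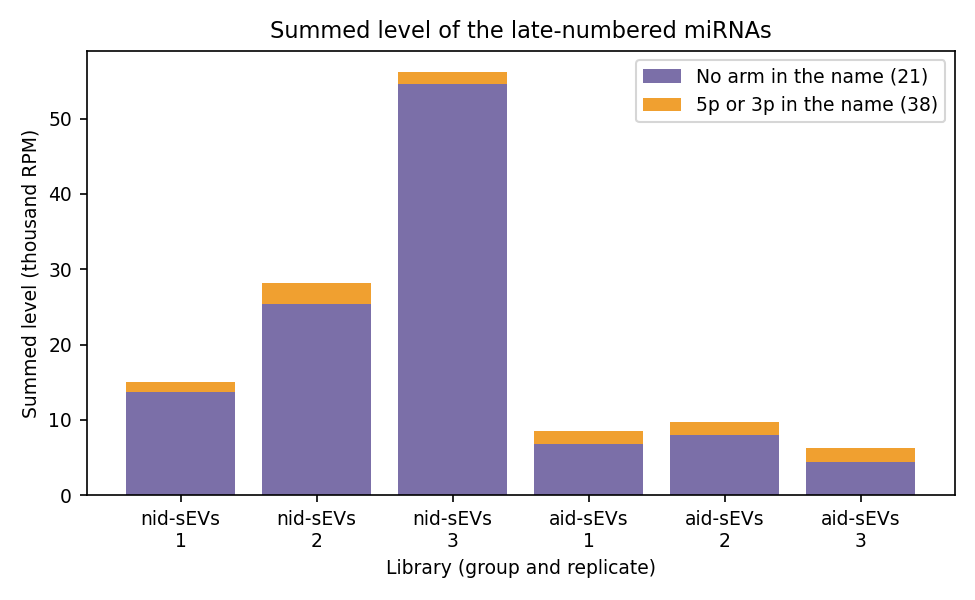
Summed level (in units of 1000 RPM, vertical axis from 0) of the late-numbered miRNAs in each of the 6 libraries (horizontal axis), with the 21 miRNAs without an arm in purple and the 38 with an arm in orange stacked on top. The purple part runs from 13674 to 54656 RPM in nid-sEVs and from 4392 to 8006 RPM in aid-sEVs, while the orange part stays between 1355 and 2741 RPM in all libraries.

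The level was concentrated in a few miRNAs. miR-5119, miR-5124a, miR-2137, miR-5110 and miR-6240 together held 79.3% of the 15229 late-numbered reads. miR-5119 ranked 27 among all entries by mean RPM and was the first late-numbered miRNA in both groups. By number, the 7 miRNAs from miR-5000 to miR-5999, all without an arm, held 67.0% of the late-numbered reads, and the 6 from miR-8000 upwards held 0.788%. The median miRNA of the 59 had 15 reads over the 6 libraries, against 74 for the 415 lower-numbered ones, and 24 of the 59 had fewer than 10 reads.

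miR-5119 lies in an intron of Cdk12, which encodes a kinase of transcription elongation, at chr11:98262638-98262656 on the plus strand (GRCm38). Its level was 6628, 9715 and 18067 RPM in nid-sEVs and 3896, 4139 and 1194 RPM in aid-sEVs. All nid-sEV libraries were above all aid-sEV libraries, and in the pair of nearly equal depth it had 856 reads in nid-sEV replicate 1 and 146 in aid-sEV replicate 3. In limma's fit on log2(RPM + 1) over all 718 entries, the log2 fold change of aid-sEVs over nid-sEVs was -1.97 ± 0.63 (SE) with an adjusted p of 0.0902 after Benjamini-Hochberg correction, which missed the threshold of 0.05. With RPM taken over miRBase-named reads alone, the adjusted limma p was 0.0464, the lowest of a range up to 0.218 over the alternatives.

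miR-2137 maps to an intron of Zfp185, a LIM domain gene, at chrX:72992113-72992133 on the plus strand (GRCm38). It had 1138, 4157 and 14090 RPM in nid-sEVs and 256, 366 and 589 RPM in aid-sEVs, and the groups did not overlap. Its level spanned 12.4-fold within nid-sEVs and 2.30-fold within aid-sEVs. The log2 fold change was -3.41 ± 0.94 (SE; limma adjusted p = 0.0570), and it was -4.33 without nid-sEV replicate 1, where limma called it lower (adjusted p = 0.0164), and -2.51 without nid-sEV replicate 3. On the recovered reads it was called lower in aid-sEVs by edgeR's quasi-likelihood test with and without its filter (adjusted p = 0.0275 and 0.0258) and by DESeq2 (adjusted p = 0.000438), and over all alternatives the adjusted p ran up to 0.206.

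miR-5124a, in an intron of Gcnt2, a glycosyltransferase gene, lies at chr13:40865801-40865820 on the plus strand (GRCm38). Its level was 132, 6411 and 19571 RPM in nid-sEVs, a 149-fold span, and 1539, 2067 and 900 RPM in aid-sEVs. The aid-sEV libraries therefore lay between nid-sEV replicate 1 and the other two nid-sEV libraries. Its log2 fold change was -0.85 ± 1.80 (SE; limma adjusted p = 0.798), and it turned to 0.62 without nid-sEV replicate 3. Without nid-sEV replicate 1 it was -2.98 with a limma adjusted p of 0.0314.

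miR-5110 (chr11:85760675-85760699, minus strand, GRCm38) lies opposite Bcas3 and in no gene on its own strand. Its level ran in the other order within nid-sEVs, 4599, 2208 and 198 RPM, and was 106, 182 and 483 RPM in aid-sEVs, so aid-sEV replicate 3 was above nid-sEV replicate 3. The log2 fold change was -2.58 ± 1.27 (SE; limma adjusted p = 0.226), with -1.65 without nid-sEV replicate 1 and -3.91 without nid-sEV replicate 3. DESeq2 on the recovered reads called it lower in aid-sEVs (adjusted p = 0.0179), and so did limma without nid-sEV replicate 3 (adjusted p = 0.0413), with values up to 0.449 over the alternatives. Across nid-sEV replicates 1, 2 and 3, the summed islet markers were 79821, 202723 and 364349 RPM and the summed mesenchymal markers 25706, 18029 and 5798 RPM. The first stood in the same order over the 3 libraries as miR-5124a and miR-2137, and the second in the same order as miR-5110. Other lists shared these orders. The neural markers rose like the first (674, 1584 and 2018 RPM). The exocrine (8997, 6274 and 2533 RPM), red cell and liver (10608, 7401 and 4611 RPM) and endothelial markers (3717, 1843 and 989 RPM) fell like the second. The leukocyte markers followed neither order (379, 152 and 435 RPM). The part of any of these cells in the levels was not tested.

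miR-6240 and miR-5126 were the other miRNAs without an arm that lay lower in every aid-sEV library and had at least 50 reads. miR-6240 (chr5:114851973-114851998, plus strand, GRCm38, outside annotated genes on its strand) had 519, 1340 and 1247 RPM in nid-sEVs and 320, 491 and 245 RPM in aid-sEVs, and its log2 fold change was -1.49 ± 0.57 (SE; limma adjusted p = 0.147). Without nid-sEV replicate 1 its log2 fold change was -1.93 and limma called it lower (adjusted p = 0.0437). miR-5126 (chr1:84695890-84695911, plus strand, GRCm38), which lies opposite Dner, a Notch ligand gene, had 178, 274 and 198 RPM in nid-sEVs and 17.3, 5.68 and 73.6 RPM in aid-sEVs. Its nid-sEV libraries were close to each other, within 1.54-fold, while it had 9, 2 and 9 reads in the aid-sEV libraries. The log2 fold change of miR-5126 was -3.36 ± 0.9998 (SE; limma adjusted p = 0.0717), and edgeR with its filter (adjusted p = 0.0401) and DESeq2 (adjusted p = 0.0179) called it lower. Limma also called it lower without aid-sEV replicate 3, at -4.27 with an adjusted p of 0.0247, while the value was -2.53 without aid-sEV replicate 2 and -2.43 in edgeR without its filter, neither of them called. Over all alternatives the adjusted p ran up to 0.202.

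Of the 10 miRNAs without an arm that had reads in all 6 libraries, 9 had a negative log2 fold change, and none of the 10 was called by limma. The exception in sign was miR-3968 (chr11:115447969-115447989, minus strand, GRCm38, opposite Trim80), with 77.4, 381 and 178 RPM in nid-sEVs and 225, 338 and 270 RPM in aid-sEVs. Its groups overlapped, and its log2 fold change was 0.65 ± 0.71 (SE; limma adjusted p = 0.583). miR-6239 (chr14:117953768-117953787, minus strand, GRCm38, opposite Gpc6) had 31.0, 137 and 39.6 RPM in nid-sEVs and 27.0, 8.52 and 24.5 RPM in aid-sEVs. The groups did not overlap, but by a small margin and on 35 reads in all, and its limma adjusted p was 0.285. miR-5106 and miR-6538, the latter in an intron of the ubiquitin ligase gene Rnf144a, overlapped between the groups. miR-5106 had 61.9, 60.9 and 693 RPM in nid-sEVs and 34.7, 25.6 and 196 RPM in aid-sEVs (limma adjusted p = 0.548), and miR-6538 54.2, 76.1 and 198 against 11.6, 39.7 and 65.4 RPM (limma adjusted p = 0.296). Replicate 3 was the highest library of its group for both.

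**Figure D2:**
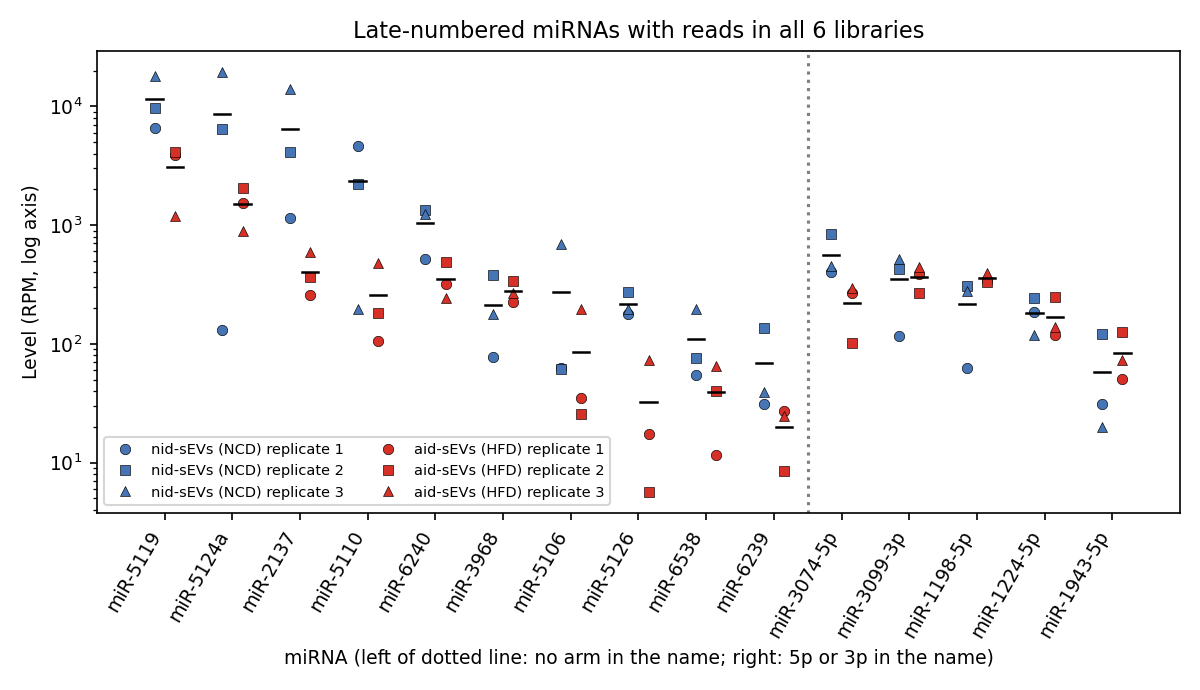
Level (RPM, logarithmic vertical axis) of the 15 late-numbered miRNAs with reads in all 6 libraries, with those without an arm left of the dotted line and those with an arm right of it. Points are libraries (blue nid-sEVs, red aid-sEVs, symbols by replicate number) and bars are group means (n = 3). For miR-5119, miR-2137, miR-6240, miR-5126, miR-6239 and miR-3074-5p all blue points lie above all red ones, and for miR-1198-5p all lie below.

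Of the 5 miRNAs with an arm and reads in every library, miR-3074-5p was lower and miR-1198-5p higher in every aid-sEV library, and none was called by limma. miR-3074-5p can come from either of 2 hairpins, which lie opposite the hairpins of miR-24 at chr13:63301249-63301270 and chr8:84208873-84208894 (both minus strand, GRCm38). It had 403, 838 and 455 RPM in nid-sEVs and 266, 102 and 294 RPM in aid-sEVs. The groups did not overlap, with a log2 fold change of -1.42 ± 0.63 (SE; limma adjusted p = 0.213). miR-3099-3p, in an intron of the deubiquitinase gene Usp29 (chr7:6803638-6803659, plus strand, GRCm38), had 116, 426 and 515 RPM in nid-sEVs and 391, 267 and 442 RPM in aid-sEVs. Its log2 fold change of 0.28 ± 0.71 (SE; limma adjusted p = 0.828) became -0.38 without nid-sEV replicate 1 and -0.089 in edgeR's fit with its filter, so no direction is given.

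miR-1198-5p, in an intron of Gripap1, whose protein works in recycling endosomes (chrX:7807142-7807163, plus strand, GRCm38), had 61.9, 305 and 277 RPM in nid-sEVs and 341, 332 and 393 RPM in aid-sEVs. All aid-sEV libraries were above all nid-sEV libraries, and in the pair of nearly equal depth it had 8 reads in nid-sEV replicate 1 and 48 in aid-sEV replicate 3. The log2 fold change was 1.02 ± 0.74 (SE; limma adjusted p = 0.389), and 0.29 without nid-sEV replicate 1. miR-1224-5p is the 5′ end of a mirtron that fills an intron of 85 bases in Vwa5b2 (chr16:20604452-20604472, plus strand, GRCm38). It had 186, 244 and 119 RPM in nid-sEVs and 119, 250 and 139 RPM in aid-sEVs, with a log2 fold change of -0.12 ± 0.60 (SE; limma adjusted p = 0.910) whose sign changed with TMM scaling (0.37). miR-1943-5p, in an intron of Tmem184b, had 31.0, 122 and 19.8 RPM against 50.1, 125 and 73.6 RPM, with overlapping groups (limma adjusted p = 0.571).

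A miRNA was called where its adjusted p fell under 0.05 and its log2 fold change was larger than 1 in size. Limma called 6 of the 59 late-numbered miRNAs higher in aid-sEVs (10.2%), where 15.6% of all 718 entries were called higher, and 0 lower, where 1.81% of all entries were called lower. At an unadjusted limma p under 0.05 and the same fold, 8 were higher and 4 lower. No share of all entries was taken at this threshold, so these counts have no background to be read against. Of the 6, 5 had 0 reads in nid-sEVs, so they entered the table only through the group in which they are high, and their calls are given as a description. The 415 lower-numbered miRNAs had 85 calls higher and 8 lower. edgeR's quasi-likelihood test with its filter kept 14 of the 59 and called 2 higher (background 19.6%) and 2 lower (8.57%). Without the filter it called 2 higher (7.8%) and 1 lower (0.975%), and DESeq2, which gave an adjusted p for 28 of the 59, called 2 higher (13.6%) and 3 lower (10.5%). The backgrounds are shares of the entries that each test gave an adjusted p. In each of these 3 count tests the 2 miRNAs called higher were miR-1983 and miR-7688-5p.

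miR-7688-5p (chr10:93433107-93433129, plus strand, GRCm38, outside annotated genes on its strand) had 0 reads in each nid-sEV library and 45, 32 and 12 reads in aid-sEVs. Its level in aid-sEVs was 86.7, 90.8 and 98.1 RPM, the narrowest spread of any called late-numbered miRNA in proportion to its mean (91.9 ± 5.82 RPM, SD, n = 3). Against a floor of 3 reads over the whole nid-sEV group (12.2 RPM), it was at least 7.32-fold higher in aid-sEVs. The fitted log2 fold change of 6.54 ± 0.78 (SE; limma adjusted p = 0.00644) depends on the pseudocount of 1. Over the alternatives that keep the replicate number out of the fit, its adjusted p lay between 0.00237 and 0.0234. In the pair of nearly equal depth it had 0 reads in nid-sEV replicate 1 and 12 in aid-sEV replicate 3.

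The 3 nid-sEV libraries held 2, 0 and 0 reads of miR-1983 and the 3 aid-sEV libraries 100, 78 and 23, or 15.5, 0 and 0 RPM against 193, 221 and 188 RPM. Every aid-sEV library was above every nid-sEV library, with 2 reads in nid-sEV replicate 1 and 23 in aid-sEV replicate 3 at nearly equal depth. Over the pooled reads the ratio was 24.8 (95% interval from counting error alone, 6.78 to 206). The log2 fold change was 6.30 ± 1.29 (SE; limma adjusted p = 0.0247). Its call was lost in limma when any of aid-sEV replicates 1, 2 or 3 or of nid-sEV replicates 2 or 3 was left out, with adjusted p between 0.0539 and 0.0943. The miRNA lies at chr13:21896930-21896950 on the minus strand (GRCm38), and 13 of its 21 bases lie in the RefSeq tRNA gene n-TItat14 (chr13:21896938-21897031), which codes for an isoleucine tRNA. Reads of the mature miRNA and of tRNA pieces that span the same bases cannot be told apart in this table.

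The other 4 called miRNAs had no read in nid-sEVs and few in aid-sEVs. miR-9768-5p, in the exchange factor gene Mcf2l (chr8:12947953-12947975, plus strand, GRCm38), had 6, 4 and 5 reads in aid-sEVs, or 11.6, 11.4 and 40.9 RPM. miR-1964-3p, in an intron of the zinc finger gene Zfp84 (chr7:29773344-29773365, plus strand, GRCm38), had 16, 3 and 2 reads. miR-1947-5p, in an intron of the metalloprotease gene Lmln (chr16:33105375-33105396, plus strand, GRCm38), had 14, 4 and 2 reads. At these counts, aid-sEV replicates 2 and 3 each lay near or below 3 reads for the last 2, and nid-sEV replicates 2 and 3 had floors of 45.7 and 59.4 RPM, above every aid-sEV level of these miRNAs. miR-1306-5p had 3, 7 and 1 reads, and its hairpin lies in an exon of Dgcr8, the gene of the Microprocessor subunit (chr16:18284288-18284310, minus strand, GRCm38). Over the pooled reads, miR-9768-5p, miR-1964-3p and miR-1947-5p were at least 1.23-fold, 1.73-fold and 1.65-fold higher in aid-sEVs than a floor of 3 reads over nid-sEVs, and miR-1306-5p was under that floor. Their limma adjusted p-values were 0.0247, 0.0242, 0.0210 and 0.0301, and all 4 calls were lost without nid-sEV replicate 2 (adjusted p = 0.0771 to 0.112) and without nid-sEV replicate 3 (adjusted p = 0.0509 to 0.0785). None of the 4 was called by edgeR without its filter (adjusted p = 0.161 to 0.212).

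**Figure D3:**
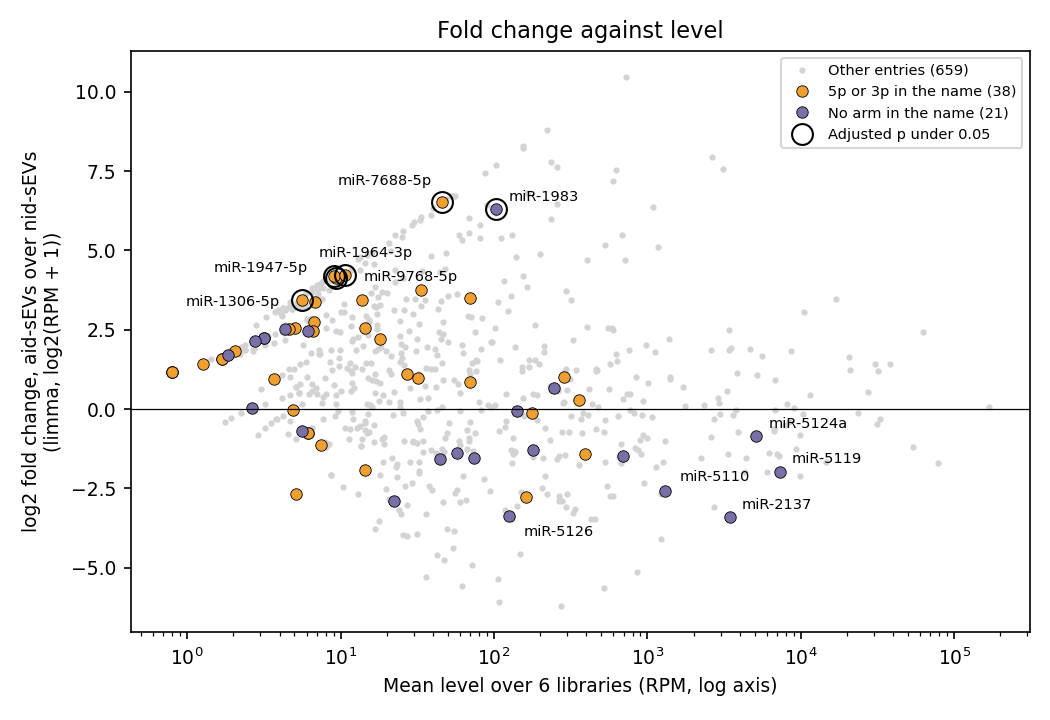
Mean level over the 6 libraries (RPM, logarithmic horizontal axis) against the log2 fold change of aid-sEVs over nid-sEVs from limma on log2(RPM + 1) (vertical axis), with late-numbered miRNAs with an arm in orange, those without in purple, the other 659 entries in grey and rings around the 6 with an adjusted p under 0.05. The ringed miRNAs lie between 3.45 and 6.54 on the vertical axis, and the most abundant miRNAs without an arm, at the right, lie below 0.

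Counted by overlap alone, 11 late-numbered miRNAs were higher in every aid-sEV library than in any nid-sEV library (18.6%, against 24.2% of all entries) and 6 were lower (10.2%, against 7.52%). Of the 11, 6 had no read in nid-sEVs, namely miR-1199-5p and the called ones apart from miR-1983. The other 5 were miR-1983, miR-1198-5p, miR-1981-5p, miR-1968-5p and miR-3102-5p.2-5p. The 6 that were lower were miR-5119, miR-2137, miR-6240, miR-3074-5p, miR-5126 and miR-6239, and all had reads in every library. Among entries with reads in all 6 libraries, where an absent read cannot set the order, 1 late-numbered miRNA of 15 was higher (background 20.5% of 219 entries) and 6 of 15 were lower (background 20.1%). The median log2 fold change of these 15 was -1.42, against -0.21 for the 219 entries, while over all 59 it was 1.10 and over all 718 entries 1.11. Scaling by TMM factors (edgeR's trimmed mean of M-values) moved the median of all entries to 1.43, so single values are best read against these medians.

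By arm, the 38 miRNAs with an arm had 5 called higher (13.2%, against 15.6% of all entries), 0 called lower, 10 higher (26.3%, against 24.2%) and 1 lower (2.63%, against 7.52%) without overlap, and a median log2 fold change of 1.51. The 21 without an arm had 1 called higher (4.76%), 0 called lower, 1 higher (4.76%) and 5 lower (23.8%) without overlap, and a median of -0.85. Of the 38 and the 21, 17 and 5 had no read in nid-sEVs, so the listing fixed their positive sign. The medians and the shares that were higher are therefore a description. By number, the 17 miRNAs from miR-1000 to miR-1999 held 4 of the 6 calls (23.5% of the 17, against 15.6% of all entries) and 8 of the 11 that were higher without overlap (47.1%, against 24.2%). A positive log2 fold change was found for 16 of the 17 (94.1%, against 65.5% of all entries). Their summed level was 552 ± 149 RPM in nid-sEVs and 1092 ± 111 RPM in aid-sEVs (SD, n = 3). No read in nid-sEVs was found for 8 of the 17 (47.1%, against 21.6% of all entries). These 8 are listed only through aid-sEV reads, so their positive sign was fixed in advance. Among them are miR-1964-3p, miR-1947-5p and miR-1306-5p, which were called, and miR-1199-5p, which was higher without overlap. The shares of the 17 are therefore a description. The 7 from miR-5000 to miR-5999 summed to 23047 ± 14104 RPM and 4959 ± 1868 RPM (SD, n = 3), with none called and all 7 negative. The 12 from miR-3000 to miR-3999 summed to 1219 ± 500.03 RPM and 994 ± 129 RPM (SD, n = 3), with none called. The 16 from miR-6000 to miR-7999 had 1 call, miR-7688-5p, and the 6 from miR-8000 upwards had 1, miR-9768-5p.

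More late-numbered miRNAs were detected in aid-sEVs, whose libraries were deeper. At least 1 read was found for 33, 25 and 20 of the 59 in nid-sEV replicates 1, 2 and 3 and for 49, 51 and 41 in aid-sEV replicates 1, 2 and 3 (26.0 ± 6.56 against 47.0 ± 5.29, SD, n = 3). With every library set to the smallest total of 50534 reads by the hypergeometric formula, the expected numbers were 27.7, 24.0 and 20 in nid-sEVs and 29.6, 30.8 and 33.0 in aid-sEVs. The means were then 23.9 and 31.1, so the difference fell from 21 to 7.22 miRNAs. For miRNAs with an arm they were 11.0 and 17.9, for those without 12.9 and 13.3, and for the 415 lower-numbered miRNAs 238 and 301. These numbers are a description, since the list of 59 was itself drawn from entries with reads in 2 or more libraries at full depth, which favours miRNAs seen in the deeper aid-sEV libraries, and setting the totals equal does not undo that. The totals also include the reads without a miRBase name.

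**Figure D4:**
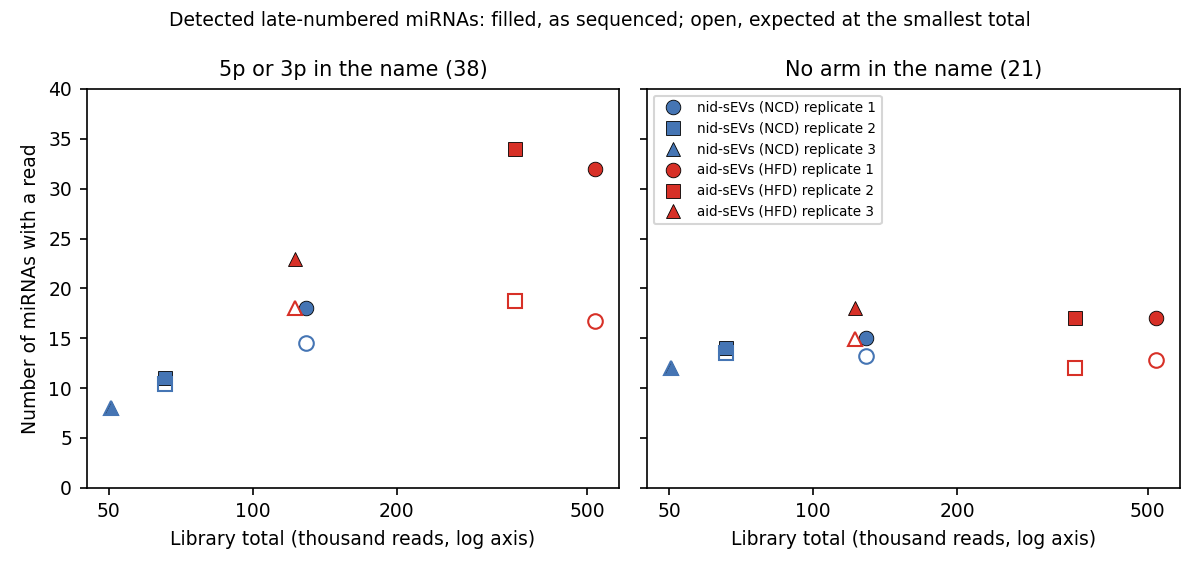
Number of late-numbered miRNAs with at least 1 read (vertical axis) against the library total (in units of 1000 reads, logarithmic horizontal axis), for the 38 with an arm (left) and the 21 without (right). Filled symbols are numbers as sequenced and open symbols the numbers expected at 50534 reads (blue nid-sEVs, red aid-sEVs, symbols by replicate number); the open symbols of the groups separate on the left (8.0 to 14.5 against 16.8 to 18.7) and overlap on the right.

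In all, 22 late-numbered miRNAs (37.3%, against 21.6% of all entries) had no read in any nid-sEV library, 17 with an arm and 5 without. Only 1, miR-3105-3p, had none in any aid-sEV library. Since the table lists an entry only if 2 libraries hold it, these 22 had to have reads in aid-sEVs. They had 2 to 89 reads there (median 7.5), and for 17 of the 22 the pooled aid-sEV level was no higher than a floor of 3 reads over the nid-sEV group. For those 17 a difference over the pooled reads was not detectable at this depth. They include miR-1306-5p, although limma called it higher (adjusted p = 0.0301). At the other end, 15 miRNAs had reads in all 6 libraries, and 21 had reads in exactly 2.

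The genome context was read from RefSeq and GENCODE M21 positions on GRCm38. Of the 56 miRNAs with a position, 41 lay inside a protein-coding gene on its own strand and 12 outside annotated genes on their strand. The 41 had 4 calls higher (9.76%, against 15.6% of all entries), 9 higher (22.0%, against 24.2%) and 3 lower (7.32%, against 7.52%) without overlap, shares near or below those of the whole table, and a median log2 fold change of 1.16. The 12 had 2 calls higher (16.7%), 2 higher (16.7%) and 3 lower (25.0%) without overlap, and a median of -1.07. Of the 41 and the 12, 17 and 3 had no read in nid-sEVs, so the listing fixed their positive sign. These medians too are a description. A further 14 of the 56, a list that shares members with the first, had hairpins in introns of at most 300 bases or within 10 bases of a splice site, the place of mirtrons. None of the 14 was called, 2 were higher without overlap (14.3%, against 24.2% of all entries), and their summed level was 549 ± 426 RPM in nid-sEVs and 442 ± 131 RPM in aid-sEVs (SD, n = 3).

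Within the short-intron list, miR-1981-5p is the 5′ end of an 82-base intron of Marc2, a gene of a mitochondrial reductase (chr1:184822465-184822488, minus strand, GRCm38). It had 31.0, 30.5 and 0 RPM in nid-sEVs and 127, 168 and 65.4 RPM in aid-sEVs. The groups did not overlap, and the log2 fold change was 3.49 ± 1.52 (SE; limma adjusted p = 0.204). miR-6959-3p, at the 3′ end of an intron of Sbf1, a myotubularin family gene (chr15:89305658-89305679, minus strand, GRCm38), went the other way in most libraries, with 240, 655 and 0 RPM in nid-sEVs and 0, 5.68 and 73.6 RPM in aid-sEVs. Its groups overlapped (log2 fold change -2.77 ± 2.83, SE; limma adjusted p = 0.554). miR-3057-5p, in a short intron of some transcripts of the adaptor gene Apba3, had 0, 45.7 and 0 RPM in nid-sEVs and 65.5, 65.3 and 24.5 RPM in aid-sEVs. It was called in limma only when nid-sEV replicate 2 was left out.

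Both products of 4 hairpins were listed. miR-1981 had 139 reads from its 5p arm and 7 from its 3p arm over the 6 libraries, a ratio of 19.9. miR-1306 had 11 from its 5p arm and 2 from its 3p arm, and miR-3074-5p had 340 reads against 6 for miR-3074-2-3p. The miR-3102 hairpin, which lies in an intron of some transcripts of Arhgef17 and in an exon of others, was closer to even, with 31 reads of miR-3102-5p.2-5p and 21 of miR-3102-3p.

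Hairpins on other RNA genes or opposite other miRNAs made short lists. miR-1983 on a tRNA gene, miR-1839-5p, whose gene also has a scaRNA transcript, and miR-3068-5p, whose gene also has a snoRNA transcript, summed to 64.6 ± 38.1 RPM in nid-sEVs and 234 ± 25.8 RPM in aid-sEVs (SD, n = 3). The difference came from miR-1983, since miR-1839-5p had 8, 0 and 2 reads in nid-sEVs and 28, 7 and 2 in aid-sEVs, and miR-3068-5p had 4, 3 and 0 against 1, 3 and 0. No mature sequence of the 56 was found whole in another annotated rRNA, snRNA, snoRNA, scaRNA or other structural transcript of GENCODE M21, nor did any share an unbroken run of 16 bases with one, which was true for all but 2 of the 363 lower-numbered sequences. That set holds rRNA transcripts of up to 1849 bases and 0 nuclear tRNA transcripts, so it does not cover every such RNA. The search could not find pieces of nuclear tRNAs or of any rRNA missing from the set. miR-3071-5p, in an exon of the imprinted gene Rtl1 opposite miR-136, had 6, 0 and 0 reads in nid-sEVs and 8, 2 and 5 in aid-sEVs, with overlapping groups.

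The libraries disagreed within groups for miR-8117, with 155, 548 and 0 RPM in nid-sEVs and 42.4, 19.9 and 81.8 RPM in aid-sEVs. Its groups overlapped, and its log2 fold change was -0.06 ± 2.35 (SE; limma adjusted p = 0.986). miR-6238 had 9, 1 and 5 reads in nid-sEVs and 43, 27 and 0 in aid-sEVs, also with overlapping groups. miR-8094 and miR-8095 had 4 and 2 reads in all. No miRNA of the Htr2c intron cluster with a number of 1000 or higher was listed.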

How the data were processed

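Small RNA libraries of islet sEVs (nid-sEVs, 3 NCD libraries, and aid-sEVs, 3 HFD libraries) were grouped by their labels. A sequencing company processed the reads. The submitters' processing notes name fastp 0.23.0, HISAT2 2.2.1 and GRCm38, and the miRNA reference, the counting tool and the filter are not given in the sources used here. The authors deposited levels as RPM, relative to the library total. The deposited columns of the authors' own comparison (fold change, abundance, p-value, false discovery rate) were not used. The smallest value above 0 in a library was taken as 1 read, and 100% of the values were then whole reads (tolerance 0.01 reads).

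The members and lists were chosen with earlier results of these data known. As the values are RPM, limma 3.58.1 in R 4.3.3 (lmFit, eBayes with trend) was run on log2(RPM + 1) for all 718 entries, with the group as the only term and Benjamini-Hochberg adjustment. Where reads are few or 0, the added 1 sets much of a fold change, which can come out larger or smaller than in the count tests. Counts of reads were tested with edgeR 4.0.16 (quasi-likelihood, TMM) and DESeq2 1.42.0 as alternatives, after checks on simulated data. The other alternatives were pseudocounts of 0.1 and 10, a mean RPM of at least 10, TMM-scaled RPM, RPM over miRBase-named reads, centring on entries with reads in all libraries, the replicate number as a block and each library left out in turn. Single values per library were compared with two-sided exact permutation tests. Pooled ratios have exact 95% intervals. Named miRNAs were the 10 of highest mean RPM, all those called, the 5 highest and 5 lowest log2 fold changes among those with at least 10 reads, those with reads in all libraries, miR-1983, miR-2137 and miR-7688-5p, and 2 to 4 per list. Others, such as those in counts without overlap, were named after their values were seen. Sequences came from RefSeq (GRCm38.p6) and genes from RefSeq and GENCODE M21.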

Additional observations from a re-analysis of the deposited data

How the results depend on the processing

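The 6 miRNAs called higher became 2 under DESeq2, under edgeR with and without its filter and with a pseudocount of 10, 3 with a mean RPM of at least 10 (30 of the 59 tested, so fewer could be called), and 0 with the replicate number as a block. The 0 called lower became 3 under DESeq2, 2 under edgeR with its filter, 1 without it and 2 with RPM over miRBase-named reads. Leaving out 1 library gave 1 to 14 called higher and 0 to 4 called lower. Those higher numbered 14 without aid-sEV replicate 3, 10 without nid-sEV replicate 1, 2 without nid-sEV replicate 2 and 1 without nid-sEV replicate 3, and those lower 1 without aid-sEV replicate 3, 4 without nid-sEV replicate 1 and 2 without nid-sEV replicate 3. For these limma alternatives the share of all entries called was not taken. The counts therefore have no background and are not read as a trait of the late-numbered miRNAs. The cause of the changes was not tested.

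The log2 fold change of miR-5124a turned to 0.62 without nid-sEV replicate 3 (-2.98 to 0.62 over the left-out libraries). That of miR-3099-3p turned to -0.089 in edgeR with its filter and to -0.38 without nid-sEV replicate 1 (-0.38 to 0.68). That of miR-1224-5p turned to 0.027 under DESeq2, 0.37 with TMM-scaled RPM, 0.050 with centring, 0.44 in edgeR without its filter, 0.089 without aid-sEV replicate 1 and 0.11 without nid-sEV replicate 2 (-0.44 to 0.11). The summed level with an arm turned to 0.29 without nid-sEV replicate 2 (log2 -0.27 to 0.29), an alternative chosen after seeing the data. Of 336 alternative values for 22 named miRNAs, 286 kept their direction and side of the threshold, 28 lost the call, 13 gained one and 9 reversed. Only the called miRNAs could lose a call. Leaving the block aside, miR-7688-5p stayed called in 15 of 15 alternatives, miR-1983 in 9 of 15 and miR-9768-5p in 9 of 13. For miR-1964-3p, miR-1947-5p and miR-1306-5p it was 8 of 12 each. All of these but miR-1983 had no read in nid-sEVs and were listed only through aid-sEVs. For them the numbers of alternatives describe the calls and give them no support. The summed level kept its direction when a library was left out (log2 -2.37 to -1.40), and so did the number detected (18.0 to 24.5 more in aid-sEVs).

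Deviations of same-numbered libraries from their group means correlated at -0.053, 0.058 and -0.051, which shows no shared deviation. These values cannot tell whether same-numbered libraries were made together. Under the block 0 were called higher and 0 lower. Depth limits the sparse miRNAs most, since 1 read was 7.74 to 19.8 RPM in nid-sEVs.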
